A study of Mus musculus with 78 samples.

Results

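The genes described here are imprinted genes of the mouse, measured by RNA-seq in peri-implantation and gastrulating embryos. They are 44 genes, chosen by name for their known imprinting, out of 22563 genes shared by the 3 expression tables of the series. Of them 23 are known to be expressed from the paternal allele and 21 from the maternal allele. They lie in 9 clusters that hold 34 of the genes, and 10 stand at single loci. The values are FPKM (fragments per kilobase of transcript, scaled to the mapped fragments of each library) per gene, so they do not separate the alleles: a level here is the sum over both.

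An imprinted gene is transcribed mainly or only from the copy inherited from a given parent. In most clusters a stretch of DNA that carries methylation on a single parental copy, set in the germ line, controls which genes of the cluster are used. That methylation has to pass through the genome-wide loss of methylation before implantation and the gain of methylation after it. Many imprinted genes act on growth and on the placenta and other extraembryonic tissues, and imprinting of some is known only in certain tissues.

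The RNA came from embryos of C57BL/6N females mated to DBA/2N males, with 2 libraries per group. In vivo there were 11 groups: inner cell mass (ICM) and trophectoderm (TE) at embryonic day E3.5, ICM at E4.0, epiblast and visceral endoderm (VE) at E5.5 and at E6.5, and 4 tissues at E7.5 (ectoderm, primitive streak, mesoderm and endoderm). The ICM or epiblast gives rise to the embryo, and TE and VE give rise to extraembryonic tissue. Embryos flushed at E4.5 and cultured in medium with 20% fetal bovine serum gave 4 more groups: epiblast and VE after 4 days, in a table of their own, and embryos after 2 days and after 1 day, in another. The 1-day and 2-day samples carry a label of whole embryo, although an ICM isolation is described in their protocol, and they are called embryos here. Mothers of E3.5, E4.0 and cultured embryos were superovulated and these samples were lysed directly, whereas from E5.5 on the mothers had mated naturally and the RNA went through a column kit. For E5.5 against E4.0 the stage and this preparation cannot be told apart. The labels do not say that the 2 libraries of a group come from separate litters, so p-values measure only the spread between these libraries. Methylation was read in a further sample, E6.5 epiblast lacking Tet1 and Tet2, enzymes that oxidise methylated cytosine, bred from parents that carried a Tet1 deletion on 1 allele and a Tet2 deletion on both.

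In vivo 8456 to 10417 genes reached 1 FPKM in a library, and the depth, estimated from ratios of low FPKM values, ranged from 0.439 to 1.41 times that of the first library of the table. Replicates correlated between r = 0.898 and r = 0.994 on the log2(FPKM + 1) scale, lowest in embryos cultured for 2 days and highest in E7.5 mesoderm. The VE markers Ttr, Apoa1, Afp, Amn, Cubn and Sox17 together had 2914 and 4197 FPKM in E5.5 VE and 5699 and 6235 in E6.5 VE, against at most 17.4 in any epiblast library in vivo. Epiblast markers were not at 0 in VE. Fgf5 reached 182 and 197 FPKM in E6.5 VE, Utf1 reached 44.8 and 93.5 FPKM in E5.5 VE, and Pou5f1 had 0.277 and 0.490 FPKM in E5.5 VE and 20.9 and 2.10 in E6.5 VE. The trophoblast markers Cdx2, Gata3, Krt8, Krt18, Elf5, Tpbpa and Plac1 together had 1419 and 3071 FPKM in E3.5 TE. They had 359 and 325 FPKM in E5.5 VE, 945 and 1147 in E6.5 VE and 1313 and 1213 in E7.5 endoderm. In epiblast in vivo they had at most 75.9 FPKM in a library. Of these markers Tpbpa was at 0 in every library, TE included. The part of trophoblast RNA in the VE levels was not tested. In bulk samples fewer cells of a type and less RNA per cell cannot be told apart.

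Imprinted genes were few and low in the blastocyst and more of them were present after implantation. In E3.5 ICM 4 of 44 had a mean of at least 10 FPKM, and this number was 8 in E4.0 ICM, 13 in E5.5 epiblast, 14 in E6.5 epiblast, 15 in E7.5 primitive streak, 18 in E7.5 mesoderm and 20 in E7.5 endoderm. Over all genes the share at that level moved less, with 16.9% in E3.5 ICM, 21.1% in E4.0 ICM and 21.8% in E7.5 mesoderm. Their summed mean level was 177 FPKM in E3.5 ICM and 4199 FPKM in E7.5 mesoderm, where a single gene, Phlda2, a maternally expressed inhibitor of placental growth, had 3007 and 2182 FPKM. In vivo 23 members stayed under 10 FPKM in every group, with highest group means between 0.278 FPKM (Zim1) and 8.55 FPKM (Ascl2), 21 reached 10 FPKM in at least 1 group and 10 reached 100 FPKM. By group mean, 17 of 44 members were highest in E7.5 mesoderm, 8 in E5.5 VE, 6 in E5.5 epiblast, 4 each in E6.5 VE and E7.5 endoderm, 2 in E6.5 epiblast, 2 in a blastocyst group and 1 in E7.5 streak or ectoderm. The same count was not made over all genes. Those highest in mesoderm include Zim1 at 0.278 FPKM and Rasgrf1 at 0.617 FPKM, which were too low to test.

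**Figure D1:**
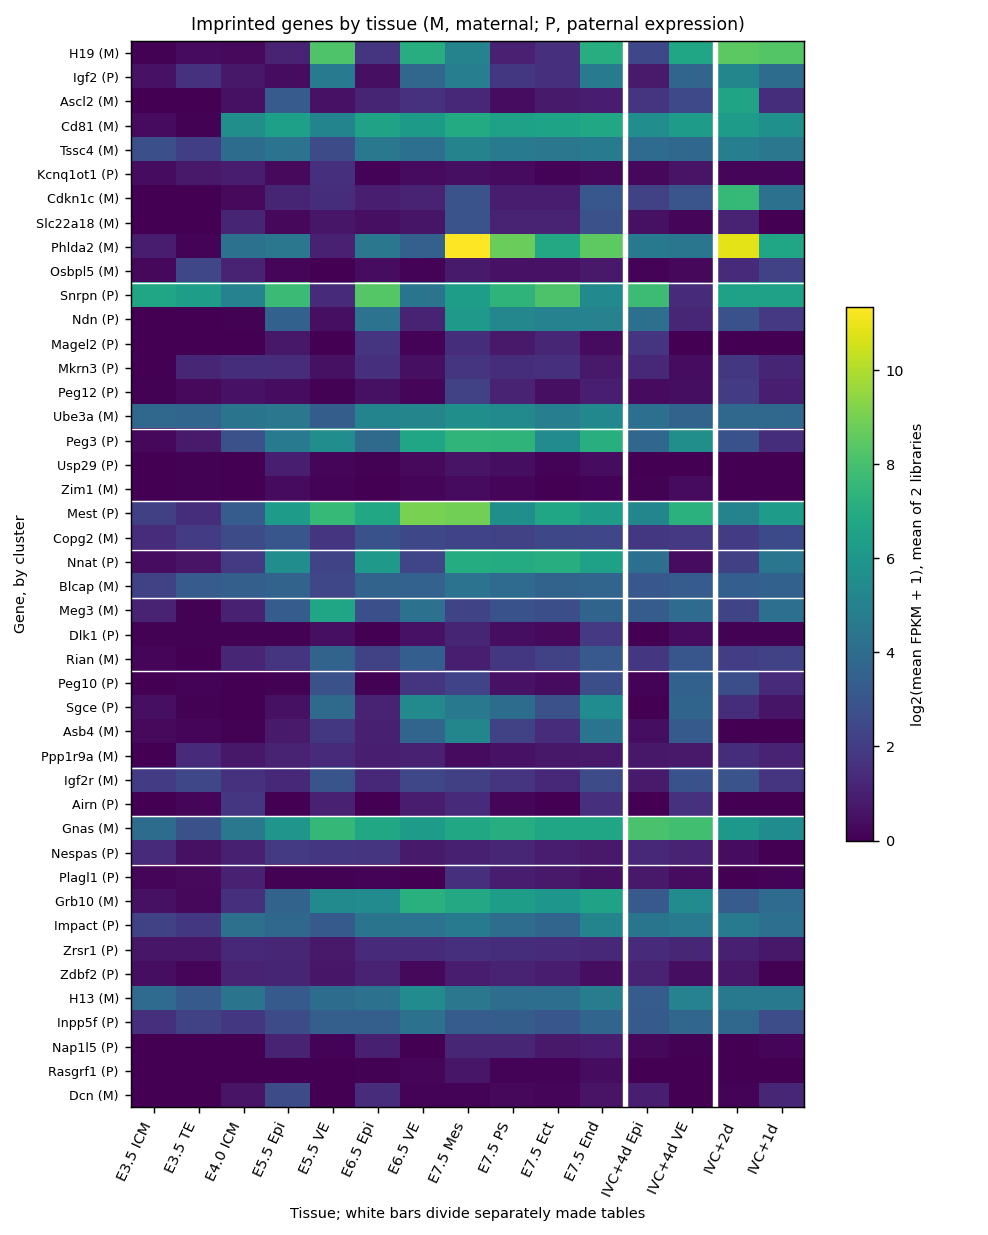
Mean level of each of the 44 imprinted genes in the 15 groups, as log2(mean FPKM + 1), with 2 libraries per group; rows are genes ordered by cluster, with M or P for the expressed allele, and wide white bars part the 3 tables, which are read separately. Low levels are dark: the E3.5 columns are mostly dark (4 and 2 members of 44 at 10 FPKM or more in ICM and TE), and E7.5 mesoderm and endoderm hold 18 and 20.

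The promoters show where marks specific to a parental copy could be read. RefSeq promoter windows (build GRCm38.p6, from 250 bases before to 50 after the start, 300 bases) were found for 37 of the 44 members, 55 windows in all, and none is shown for H19, Sgce, Dcn, Nespas, Cdkn1c, Impact and Peg10. Member windows held a median of 15 CpG sites, against 7 in all 32851 windows. TGCCGC, the methylated motif bound by the imprint-maintaining protein ZFP57, was searched on both strands. It was in 13 of the 55 member windows (23.6%), against 3813 of all windows (11.6%), and it holds a CpG itself, so windows with more CpGs have more chances to hold it. The 6 windows below are those of genes whose methylation or levels are described next, read 5′ to 3′ on the strand of the gene, with every CpG in capitals. Peg3 (chr7:6730370-6730669, minus strand), Nnat (chr2:157559828-157560127, plus), Kcnq1ot1 (chr7:143296498-143296797, minus), Mest (chr6:30733256-30733555, plus, an upstream start) and Gnas (chr2:174327499-174327798, plus, an upstream start) were partly methylated, and Blcap (chr2:157566312-157566611, minus) is shown for contrast, because Nnat lies within it and the allele used differs.
Peg3: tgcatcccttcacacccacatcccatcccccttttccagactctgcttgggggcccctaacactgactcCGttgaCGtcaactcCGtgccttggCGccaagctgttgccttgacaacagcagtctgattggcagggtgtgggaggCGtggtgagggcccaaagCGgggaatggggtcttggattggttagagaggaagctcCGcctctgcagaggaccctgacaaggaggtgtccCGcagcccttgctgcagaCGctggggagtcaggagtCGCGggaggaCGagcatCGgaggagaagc
Nnat: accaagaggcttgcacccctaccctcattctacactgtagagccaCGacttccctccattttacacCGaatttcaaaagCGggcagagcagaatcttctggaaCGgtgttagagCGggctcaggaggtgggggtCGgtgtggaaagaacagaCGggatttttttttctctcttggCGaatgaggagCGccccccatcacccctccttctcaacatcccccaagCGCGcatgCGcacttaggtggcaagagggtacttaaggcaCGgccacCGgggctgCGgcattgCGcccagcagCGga
Blcap: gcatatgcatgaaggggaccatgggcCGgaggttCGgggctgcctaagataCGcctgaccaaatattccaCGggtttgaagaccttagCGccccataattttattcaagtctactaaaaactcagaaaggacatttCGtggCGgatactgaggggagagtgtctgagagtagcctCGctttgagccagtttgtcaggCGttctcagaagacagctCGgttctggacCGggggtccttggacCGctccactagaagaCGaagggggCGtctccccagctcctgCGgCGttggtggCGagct
Kcnq1ot1: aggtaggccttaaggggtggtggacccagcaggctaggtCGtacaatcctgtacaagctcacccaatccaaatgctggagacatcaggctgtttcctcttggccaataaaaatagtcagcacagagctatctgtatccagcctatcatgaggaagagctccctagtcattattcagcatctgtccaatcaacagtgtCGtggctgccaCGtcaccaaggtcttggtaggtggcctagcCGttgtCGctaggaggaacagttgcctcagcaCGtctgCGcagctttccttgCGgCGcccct
Mest: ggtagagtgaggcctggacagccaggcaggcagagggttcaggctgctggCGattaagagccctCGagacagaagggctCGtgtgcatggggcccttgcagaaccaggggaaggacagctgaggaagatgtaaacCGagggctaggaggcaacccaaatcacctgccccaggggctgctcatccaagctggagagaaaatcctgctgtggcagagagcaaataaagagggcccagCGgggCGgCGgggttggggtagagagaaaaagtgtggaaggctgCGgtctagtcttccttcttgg
Gnas: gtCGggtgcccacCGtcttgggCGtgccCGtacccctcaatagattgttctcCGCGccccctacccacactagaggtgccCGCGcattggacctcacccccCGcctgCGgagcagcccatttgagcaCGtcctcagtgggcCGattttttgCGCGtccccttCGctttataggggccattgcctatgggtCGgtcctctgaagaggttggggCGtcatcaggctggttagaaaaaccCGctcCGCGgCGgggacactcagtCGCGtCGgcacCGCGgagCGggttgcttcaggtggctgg

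CpG methylation was counted in Tet1/2 double-knockout E6.5 epiblast, in a deposited table of methylated and unmethylated reads per CpG of 3 merged libraries, with no replicates. A read is counted here once at each CpG that it covers. The reads of a window are thus a sum over its CpGs and may come from few molecules. The table had 48994715 reads on 21342492 positions, a mean of 2.30 reads, of which 81.1% were methylated. Windows were placed on this mm9 table by the spacing of their CpGs, without converting coordinates. This placed 45 member windows, of which 30 windows of 25 members had at least 10 reads. Of these 30, 18 were under 25% methylated, 9 lay between 25% and 75% and 3 were over 75%. Among all 13497 promoters with that many reads the shares were 82.2%, 8.55% and 9.28%. Members and all promoters differ in CpG number too, as given above, and the part of that difference was not tested. No unmutated table of this kind was analysed here, so no effect of the knockout is measured, and whether either enzyme was lost was not checked.

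The 9 windows in the middle range belonged to 8 genes: Peg3, Usp29, Kcnq1ot1, Gnas (a pair of overlapping windows), Nnat, Mest, Phlda2 and Nap1l5. Peg3, a paternally expressed zinc finger gene, had 19 methylated of 36 reads, 52.8% (95% Wilson interval 37.0 to 68.0%), with 58.1% on the Watson and 20.0% on the Crick strand. The Usp29 window overlaps it on the other strand and had 69.6%, with 74.5% and 20.0% on these strands. At Gnas, which codes for the stimulatory G protein alpha subunit, the window printed above had 27 of 50 reads methylated, 54.0% (40.4 to 67.0%), with 81.8% on the Watson and 32.1% on the Crick strand, while another Gnas start had 0 of 21. Nnat, a paternally expressed proteolipid gene, had 19 of 50 reads methylated, 38.0% (25.9 to 51.8%), with 40.4% on the Watson and 0% on the Crick strand. Its maternally expressed host gene Blcap had 0 of 35, which allows up to 9.89% by the Wilson interval. The pair share a locus and stood on either side of the 25% line. Reads of a molecule cover several CpGs, so these intervals cover counting error only and are too narrow.

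Several values in the middle range differed between the strands or rested on few reads. Kcnq1ot1, the paternally expressed antisense RNA of the Kcnq1 domain, had 14 of 25 reads methylated, 56.0%, which was 87.5% on the Watson strand and 0% on the Crick strand. With 500 bases on each side added it had 36.8% of 68 reads. The Mest window above, upstream of the gene for a hydrolase-like protein expressed from the paternal allele, had 6 of 17 reads methylated, 35.3%. The 2 overlapping Mest windows further downstream had no reads, and with flanks they had 29.3% of 116 reads. Phlda2 had 4 of 11 reads methylated, 36.4%, but 9.88% of 81 reads with flanks. Nap1l5 had 72.7% of 11 reads, with 88.9% on the Watson and 0% on the Crick strand, and 74.0% of 73 reads with flanks. Snrpn, a paternally expressed gene for a splicing protein, had 20.0% of 10 reads, and 48.3% of 29 reads with flanks.

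Other windows were over 75% or had no methylated read. Those over 75% were 1 of Zdbf2, with 89.5% of 38 reads, 1 of Grb10, with 85.7% of 14 reads, and 1 of Asb4, with 84.8% of 33 reads (72.8% of 81 reads with flanks). Zdbf2 and Grb10 each had a further window at 2.90% of 69 reads and 0 of 11 reads. Copg2 had 0 of 49, Ube3a 0 of 66 and Cd81 0 of 39 reads methylated. Of the 30 windows, 9 had no methylated read.

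**Figure D2:**
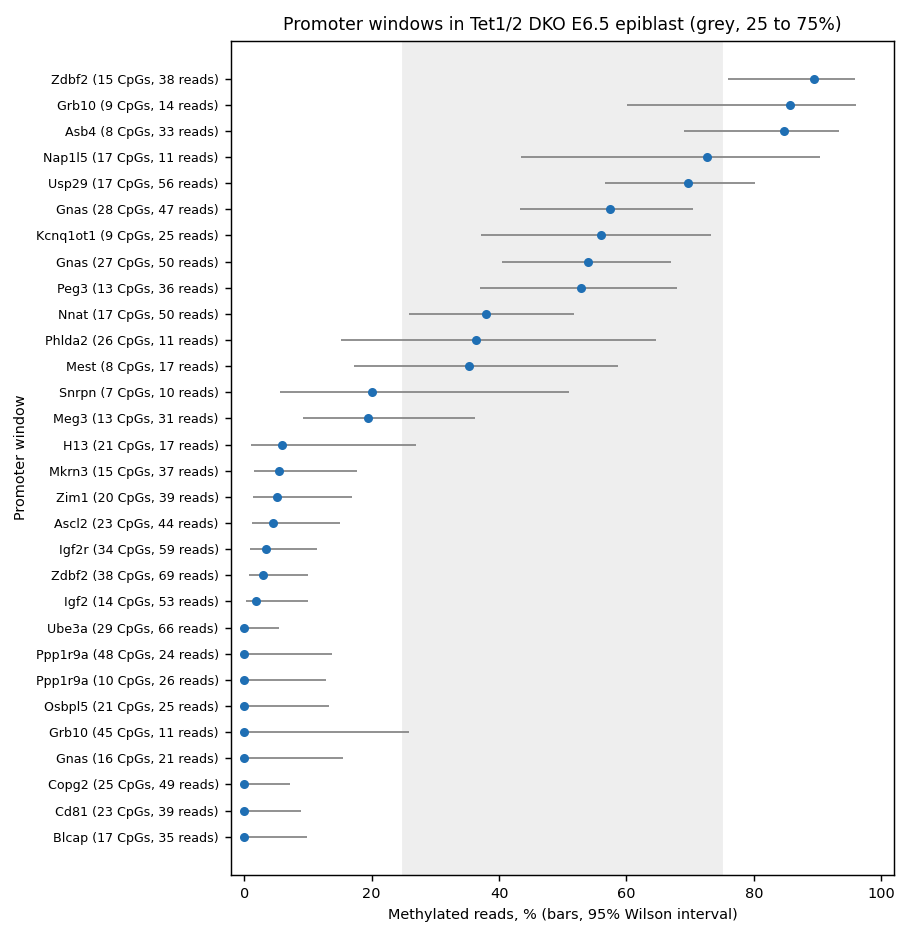
Percent of reads methylated over the CpGs of 30 promoter windows of imprinted genes with at least 10 reads, in Tet1/2 double-knockout E6.5 epiblast (3 libraries merged, no replicates); points are windows, bars are 95% Wilson intervals for counting error only, and the grey band marks 25 to 75%. In the band lie 9 windows, among them Peg3 at 52.8% and Nnat at 38.0%, and 18 lie under it.

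Expression was compared with limma on log2(FPKM + 1) over all 13493 genes that reached 1 FPKM in at least 2 libraries. A gene is called where its Benjamini-Hochberg adjusted p is under 0.05 and its log2 fold is at least 1 in size. Of the members 41 were tested and 37 (90.2%) were called in at least 1 of the 15 comparisons, against 76.8% of all genes. Usp29, Zim1 and Rasgrf1 were too low to test, and Nespas, Plagl1, Zdbf2 and Zrsr1 were called in none. Folds on this scale understate changes of low genes, and no fold is given where both libraries of a group were listed at 0. Where groups are said to be apart or not to overlap, this describes their libraries only. It was not counted over all genes and adds no support to a call.

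Epiblast and VE at E5.5 differed in 22 of the 41 tested members, with separate sets on either side. H19, the maternally expressed non-coding RNA that shares enhancers with Igf2, and Igf2, the paternally expressed growth factor, were both far higher in VE. Snrpn and the neuronal gene Nnat were far higher in epiblast. Of 41 tested members 11 (26.8%) were higher and 11 (26.8%) lower in epiblast. Over all genes 27.1% were called higher and 9.60% lower, so the share higher in epiblast was close to that of all genes. The median log2 fold over all genes was 0.36 in this comparison, and that of the tested members was 0.00. After quantile normalization the median over all genes was 0.06. Under that setting 6 members were higher and 16 lower, beside 2358 and 2125 of all genes.

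H19 had 1.41 and 1.01 FPKM in E5.5 epiblast, against 283 and 311 FPKM in E5.5 VE, a log2 fold of -7.08 (SE 0.54, adjusted p = 1.65e-08). Igf2 had 0.417 and 0.180 FPKM in epiblast, against 27.5 and 20.8 FPKM in VE, a log2 fold of -4.27 (SE 0.48, adjusted p = 1.45e-06). The 2 groups did not overlap for either gene. Sgce, for the membrane protein epsilon-sarcoglycan, and its neighbour Peg10, a retrotransposon-derived gene needed for the placenta, also stood higher in VE. Sgce had 0.891 and 0 FPKM in epiblast, against 16.4 and 11.5 FPKM in VE, and Peg10 had 0.0563 and 0.0265 FPKM, against 6.77 and 5.14 FPKM. Their log2 folds were -3.43 (SE 0.48, adjusted p = 1.45e-05) and -2.73 (SE 0.36, adjusted p = 6.99e-06). Meg3, a maternally expressed non-coding RNA, had 8.18 and 9.48 FPKM in epiblast, against 111 and 90.2 FPKM in VE (log2 fold -3.36, SE 0.60, adjusted p = 0.000153). Gnas had 66.4 and 53.0 FPKM in epiblast, against 177 and 194 FPKM in VE (log2 fold -1.63, SE 0.36, adjusted p = 0.00116). Kcnq1ot1 was low throughout, with 0.198 and 0.229 FPKM in epiblast, against 1.94 and 2.02 FPKM in VE (log2 fold -1.30, SE 0.23, adjusted p = 0.000128).

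On the other side, Snrpn had 221 and 202 FPKM in E5.5 epiblast, against 0.897 and 2.43 FPKM in E5.5 VE, a log2 fold of 6.38 (SE 0.66, adjusted p = 5.8e-07). Nnat had 58.5 and 35.1 FPKM, against 3.78 and 4.38 FPKM (log2 fold 3.19, SE 0.60, adjusted p = 0.000258). Ndn, a paternally expressed growth suppressor of the Snrpn cluster, had 12.8 and 8.04 FPKM, against 0.760 and 0 FPKM (log2 fold 3.07, SE 0.55, adjusted p = 0.000174). These 3 paternally expressed genes did not overlap between the tissues. Dcn, for the matrix proteoglycan decorin, had 5.61 and 4.64 FPKM in epiblast and was listed at 0 in both VE libraries (adjusted p = 7.94e-05). These 4 and the 7 genes of the paragraph before are the 11 calls that were kept in each fit without 1 library of the comparison. The other 11, Phlda2, Ascl2, Grb10, Rian, Tssc4, Igf2r, Copg2, Blcap, Cd81, Ube3a and Airn, each lost the call in at least 1 such fit. Among them Phlda2 had 21.6 and 21.5 FPKM in epiblast, against 1.21 and 0.847 FPKM in VE (log2 fold 3.48, adjusted p = 0.0236), and Grb10 had 17.2 and 5.24 FPKM, against 52.9 and 30.1 FPKM (log2 fold -1.94, adjusted p = 0.0084). Rian, a maternally expressed non-coding RNA beside Meg3, had 2.51 and 2.25 FPKM in epiblast, against 14.8 and 7.72 FPKM in VE. Cd81 had 115 and 50.5 FPKM, against 28.3 and 38.3 FPKM, and Tssc4 had 21.6 and 16.4 FPKM, against 5.00 and 5.04 FPKM. Ube3a, for a ubiquitin ligase, had 27.7 and 15.4 FPKM in epiblast, against 8.67 and 9.35 FPKM in VE, and Blcap had 13.5 and 8.94 FPKM, against 3.41 and 5.27 FPKM. None of these 7 genes overlapped between the tissues. Without E5.5 VE replicate 1 there were 13 calls. After quantile normalization Tssc4, Copg2, Blcap, Cd81 and Ube3a, which are widely expressed, were no longer called.

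At E6.5 H19, Igf2, Sgce and Peg10 were again called lower in epiblast and Snrpn, Nnat and Ndn higher, whereas Phlda2 (log2 fold 1.02, adjusted p = 0.643) and Meg3 (log2 fold -1.43, adjusted p = 0.105) were not called. Of 41 tested members 5 (12.2%) were higher and 8 (19.5%) lower in epiblast than in VE, against 6.95% and 9.58% of all genes. H19 had 1.56 and 3.18 FPKM in E6.5 epiblast, against 124 and 138 FPKM in E6.5 VE (log2 fold -5.33, SE 0.54, adjusted p = 4.26e-07). Sgce had 1.02 and 1.41 FPKM, against 38.7 and 42.2 FPKM (log2 fold -4.23, SE 0.48, adjusted p = 1.81e-06). Igf2 had 0.296 and 0.438 FPKM, against 12.5 and 12.3 FPKM (log2 fold -3.30, SE 0.48, adjusted p = 3.54e-05). All 3 were separated between the tissues at both stages. Peg3 had 15.7 and 12.8 FPKM in epiblast, against 109 and 96.1 FPKM in VE (log2 fold -2.77, adjusted p = 0.000212). Asb4, a maternally expressed gene for a ubiquitin ligase subunit, had 0.915 and 1.03 FPKM, against 10.4 and 13.6 FPKM (log2 fold -2.71, adjusted p = 0.000142). Neither Peg3 nor Asb4 was called at E5.5.

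Snrpn had 358 and 298 FPKM in E6.5 epiblast, against 30.5 and 9.03 FPKM in E6.5 VE (log2 fold 4.21, adjusted p = 8.26e-05). Nnat had 63.1 and 76.0 FPKM, against 6.53 and 1.95 FPKM (log2 fold 3.90, adjusted p = 6.45e-05), and Ndn had 16.7 and 21.0 FPKM, against 1.41 and 0.904 FPKM (log2 fold 3.20, adjusted p = 0.00023). In VE the library with more Snrpn and Nnat also had more Pou5f1, 20.9 against 2.10 FPKM. The 5 epiblast markers together were nearly equal, with 271 FPKM in that library and 263 FPKM in the other, and Fgf5 was lower in it. The part of epiblast RNA in these Snrpn and Nnat levels was not tested. Magel2, a further paternal gene of that cluster, had 2.25 and 2.34 FPKM, against 0.113 and 0.0183 FPKM (log2 fold 1.63, adjusted p = 5.08e-06). Peg10 was lower in epiblast with 0.0145 and 0.0655 FPKM, against 2.43 and 2.02 FPKM (log2 fold -1.63, adjusted p = 0.00217). Mest had 124 and 98.1 FPKM in epiblast, against 447 and 614 FPKM in VE (log2 fold -2.24, adjusted p = 0.0167), and Grb10 had 44.6 and 41.5 FPKM, against 119 and 173 FPKM (log2 fold -1.71, adjusted p = 0.036). Of the 13 calls, those of the 10 genes other than Mest, Grb10 and Dcn were kept in each fit without 1 library, whereas Mest, Grb10 and Dcn lost the call in at least 1 (highest adjusted p 0.136, 0.241 and 0.175). The E6.5 epiblast library with 17.4 FPKM of VE markers had 3.18 FPKM of H19, and the other, with 2.00 FPKM, had 1.56 FPKM. In E5.5 epiblast the order was the reverse, with 16.9 FPKM of VE markers beside 1.01 FPKM of H19 and 11.8 FPKM beside 1.41 FPKM. The part of VE RNA in the H19 level of epiblast was not tested.

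Cultured embryos gave these 2 tissues a further time, in libraries of their own. After 4 days in culture 4 of 41 members (9.76%) were higher and 10 (24.4%) lower in epiblast than in VE, against 10.8% and 13.6% of all genes. Snrpn had 205 and 237 FPKM in cultured epiblast, against 1.81 and 1.43 FPKM in cultured VE (log2 fold 6.41, adjusted p = 4.25e-07). H19 had 8.25 and 0.743 FPKM, against 68.5 and 133 FPKM (log2 fold -4.59, adjusted p = 2.5e-06). Nnat had 13.9 and 19.3 FPKM, against 0.384 and 0.234 FPKM (log2 fold 3.73, adjusted p = 8.52e-05). The ranges of the 2 tissues were apart for all 3. The cultured VE libraries differed from each other, with 158 and 15.3 FPKM of epiblast markers and 265 and 33.8 FPKM of Mest. Peg10 had 0.141 and 0.0461 FPKM, against 4.45 and 16.3 FPKM (log2 fold -3.15, adjusted p = 1.43e-06), and Igf2 had 1.40 and 0.171 FPKM, against 5.29 and 18.8 FPKM (log2 fold -2.73, adjusted p = 0.000223). Sgce and Airn were listed at 0 in both cultured epiblast libraries, against 14.6 and 8.52 FPKM and 1.28 and 2.94 FPKM in VE. Ndn had 14.4 and 19.7 FPKM in cultured epiblast, against 0.853 and 1.77 FPKM in cultured VE (log2 fold 2.98, adjusted p = 0.000387). Peg3 had 14.3 and 10.2 FPKM, against 45.9 and 49.5 FPKM (log2 fold -1.89, adjusted p = 0.00488). H13, for a signal peptide peptidase, had 5.71 and 12.1 FPKM, against 33 and 29.6 FPKM (log2 fold -1.78, adjusted p = 0.00961), and Grb10 had 6.64 and 9.08 FPKM, against 73.5 and 12.4 FPKM (log2 fold -1.85, adjusted p = 0.0172). Igf2r, Peg3, Grb10 and H13 lost the call in at least 1 fit without a library.

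The 3 pairs of tissues have no library in common. Their tests came from the same fit and share the error of each gene, so calls counted together here are not independent. H19, Igf2, Sgce, Peg10 and Grb10 were called lower in epiblast in all 3, which is 5 of the 11, 8 and 10 genes called lower. Of these, Grb10 lost its call in at least 1 fit without a library in each of the 3 comparisons. Snrpn, Nnat and Ndn were called higher in all 3, out of 11, 5 and 4. How many of all genes were called in all 3 was not counted, and only shares between pairs are given for them. Of the genes lower in cultured epiblast 7 of 10 (70%) were also lower at E5.5, against 41.9% of all genes lower in cultured epiblast. Taken the other way, 63.6% of the 11 lower at E5.5 were lower in culture, against 59.5% of all genes. At E6.5, 7 of the 10 genes lower in cultured epiblast were lower too, against 55.3% of all genes. Of the 8 lower at E6.5, 87.5% were lower in culture, against 78.5% of all genes. Between the stages, 45.5% of the 11 lower at E5.5 were lower at E6.5, against 55.7% of all genes. Of the 8 lower at E6.5, 62.5% were lower at E5.5, against 55.8% of all genes. Of the 4 genes higher in cultured epiblast 4 were also higher at E6.5, against 47.1% of all genes, and 3 at E5.5, against 73.0%. Of the 5 higher at E6.5, 80% were higher in culture and 80% at E5.5, against 73.5% and 79.7% of all genes. Of the 11 higher at E5.5, 36.4% were higher at E6.5 and 27.3% in culture, against 20.4% and 29.2% of all genes. Members thus stood above all genes in some of these shares and near or below them in others. The genes higher in epiblast at all 3 are paternally expressed, and those higher in VE are of both kinds: Igf2, Sgce and Peg10 are paternally and H19 and Grb10 maternally expressed.

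**Figure D3:**
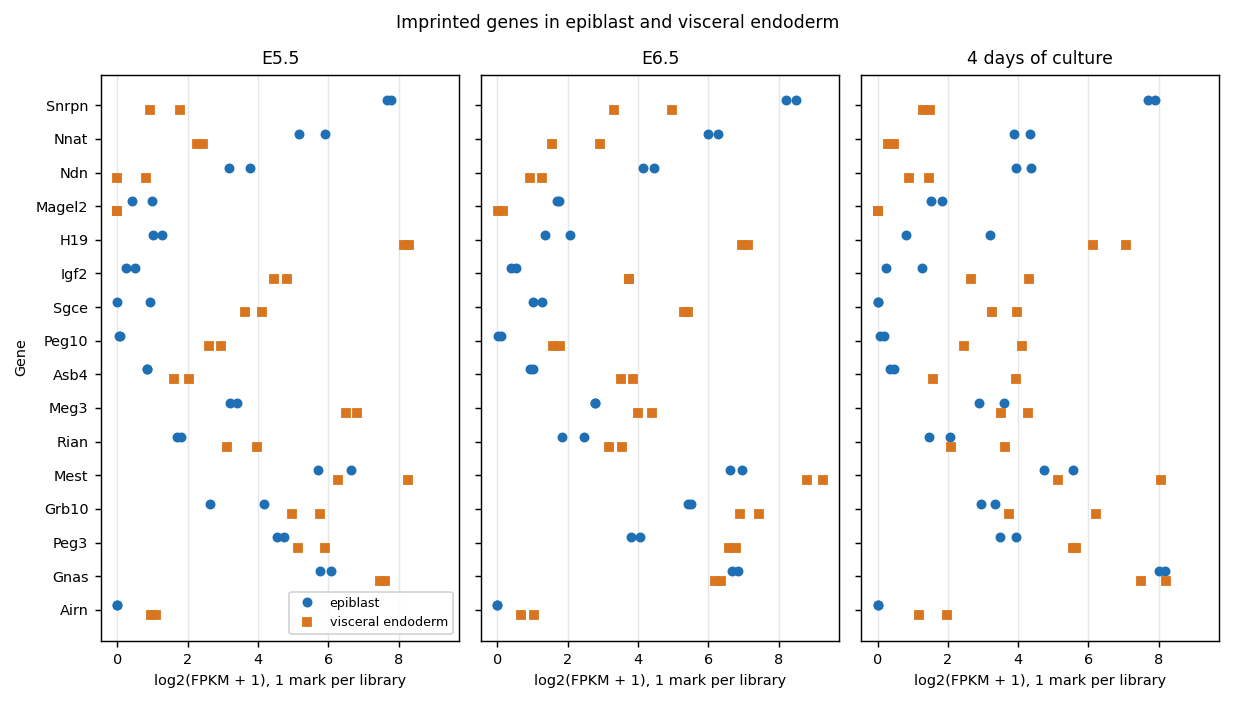
Levels of 16 imprinted genes as log2(FPKM + 1) in epiblast (circles, above) and VE (squares, below) at E5.5, at E6.5 and after 4 days in culture, with 1 point per library and 2 libraries per group. H19 and Igf2 lie right in VE and Snrpn, Nnat and Ndn lie right in epiblast in all 3 panels, for example H19 at 1.41 and 1.01 FPKM in E5.5 epiblast, against 283 and 311 FPKM in E5.5 VE.

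At E3.5 few members were called. Of 41 tested members 1 (2.44%) was higher and 4 (9.76%) lower in ICM than in TE, against 9.54% and 7.75% of all genes. Osbpl5, a maternally expressed gene for a lipid-binding protein, had 0.137 and 0.244 FPKM in ICM, against 3.45 and 5.37 FPKM in TE (log2 fold -2.16, adjusted p = 0.0169). Gnas had 15.4 and 14.5 FPKM in ICM, against 9.04 and 3.12 FPKM in TE (log2 fold 1.31, adjusted p = 0.0129). Blcap was lower in ICM, and Mkrn3 and Ppp1r9a were listed at 0 in both ICM libraries. All 5 calls were lost in at least 1 fit without a library, and without E3.5 ICM replicate 2 there were 0. With a pseudocount of 0.1, in place of 1, 4 members were higher and 3 lower, beside 1584 and 1026 of all genes. Snrpn was already high in both tissues, with 121 and 86.5 FPKM in ICM and 44.0 and 118 FPKM in TE.

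In E4.0 ICM several members appeared. Of 41, 7 (17.1%) were higher and 0 lower than in E3.5 ICM, against 15.8% and 4.80% of all genes, so the share was near that of all genes. After quantile normalization (median log2 fold of all genes 0.02, and 0.27 without it) 6 were higher and 1 lower, beside 1131 and 1137 of all genes. Cd81, for a tetraspanin, had 60.0 and 36.7 FPKM at E4.0, against 0.228 and 0.270 FPKM at E3.5 (log2 fold 5.26, SE 0.44, adjusted p = 3.31e-08). Peg3 had 8.42 and 3.64 FPKM, against 0.214 and 0.136 FPKM (log2 fold 2.49, SE 0.47, adjusted p = 0.000697). Impact, for a regulator of translation, had 16.8 and 17.2 FPKM, against 3.48 and 3.91 FPKM (log2 fold 1.94, SE 0.49, adjusted p = 0.00645). None of these 3 overlapped between the days. Airn, the paternal antisense RNA of Igf2r, had 2.26 and 2.71 FPKM at E4.0 and was listed at 0 in both E3.5 ICM libraries (adjusted p = 6.63e-06). Phlda2 had 20.2 and 15.5 FPKM at E4.0, against 0.584 and 1.03 FPKM at E3.5 (log2 fold 3.38, SE 1.20, adjusted p = 0.0448). The calls of Phlda2, Mkrn3 and Blcap were lost in at least 1 fit without a library.

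Both tissues of E5.5 were set against E4.0 ICM, which they share. In E5.5 epiblast 11 members (26.8%) were higher and 1 (2.44%) lower, against 8.67% and 8.94% of all genes. Nnat had the 58.5 and 35.1 FPKM given above, against 3.27 and 2.42 FPKM in E4.0 ICM (log2 fold 3.60, adjusted p = 0.000168). Ndn had 0.124 and 0 FPKM in E4.0 ICM (log2 fold 3.40, adjusted p = 0.000134), and Snrpn 27 and 36.0 FPKM (log2 fold 2.72, adjusted p = 0.0053). These 3 genes, called higher in E5.5 epiblast than in VE, were thus also higher in it than in the ICM. Mest had 99.6 and 51.7 FPKM in E5.5 epiblast, against 10.5 and 7.40 FPKM in E4.0 ICM (log2 fold 2.89, adjusted p = 0.00267). Airn was the gene that fell, being listed at 0 in both epiblast libraries (adjusted p = 5.61e-06). These and Dcn kept the call in each fit without 1 library. Peg3 had 22.1 and 25.5 FPKM in E5.5 epiblast, against 8.42 and 3.64 FPKM in E4.0 ICM (log2 fold 1.90, adjusted p = 0.00632). Gnas had 18.7 and 25.5 FPKM in the ICM (log2 fold 1.40, adjusted p = 0.0079), below its 66.4 and 53.0 FPKM in epiblast. Grb10 had 17.2 and 5.24 FPKM in epiblast, against 2.75 and 1.11 FPKM in ICM (log2 fold 1.92, adjusted p = 0.0183). The calls of Peg3, Gnas, Grb10, Ascl2, Meg3 and Nap1l5 were lost in at least 1 such fit.

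In E5.5 VE 12 members (29.3%) were higher and 3 (7.32%) lower than in E4.0 ICM, against 9.66% and 25.7% of all genes. After quantile normalization (median log2 fold of all genes -0.02, and -0.31 without it) 14 were higher and 1 lower. Of all genes 2080 were then higher and 2147 lower. H19 had 0.446 and 0 FPKM in E4.0 ICM, a log2 fold of 7.95 (adjusted p = 1.36e-09), and Meg3 had 0.760 and 1.30 FPKM, a log2 fold of 5.65 (adjusted p = 4.88e-07). Mest had 306 and 77.0 FPKM in E5.5 VE (log2 fold 3.98, adjusted p = 6.52e-05), and the libraries differed from each other. Grb10, for an adaptor that restrains growth signalling, had 52.9 and 30.1 FPKM, against 2.75 and 1.11 FPKM in ICM (log2 fold 3.86, adjusted p = 2.04e-05). Igf2 had 27.5 and 20.8 FPKM in VE, against 0.668 and 0.697 FPKM in ICM (log2 fold 3.89, adjusted p = 3.21e-06), and Gnas had 177 and 194 FPKM, against 18.7 and 25.5 FPKM (log2 fold 3.03, adjusted p = 2.03e-06). Peg3 had 33.9 and 58.5 FPKM, against 8.42 and 3.64 FPKM (log2 fold 2.79, adjusted p = 0.000109), and Rian had 14.8 and 7.72 FPKM, against 0.743 and 1.88 FPKM (log2 fold 2.39, adjusted p = 0.000731). Sgce had 16.4 and 11.5 FPKM in VE and was listed at 0 in both ICM libraries (adjusted p = 3.28e-06). All of these genes were higher in both VE libraries than in either ICM library. Snrpn was lower, with 0.897 and 2.43 FPKM in VE, against 27 and 36.0 FPKM in ICM (log2 fold -3.66, adjusted p = 0.000198), and so was Phlda2, with 1.21 and 0.847 FPKM, against 20.2 and 15.5 FPKM (log2 fold -3.21, adjusted p = 0.037). Of the 15 calls 12 were kept in each fit without 1 library, and those of Phlda2, Inpp5f and Blcap were not.

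Between E6.5 and E5.5 few members were called in epiblast and more in VE. In epiblast 1 member, Magel2, was higher (2.44%) and 0 were lower, against 0.430% and 0.548% of all genes. It had 2.25 and 2.34 FPKM at E6.5, against 0.979 and 0.347 FPKM at E5.5 (log2 fold 1.01, adjusted p = 0.0138), and after quantile normalization its log2 fold was 0.95 (adjusted p = 0.00743), under the fold of 1 that a call needs. With a pseudocount of 0.1 its adjusted p was 0.135, and it lost the call in 3 of the 4 fits without 1 library. At an unadjusted p under 0.05 limma had 7 of 41 members, 5 higher and 2 lower, beside 1276 of all 13493 genes. In VE 9 members (22%) were higher and 4 (9.76%) lower at E6.5 than at E5.5, against 24.7% and 2.49% of all genes. With quantile normalization (median log2 fold of all genes 0.08, and 0.50 without it) there were 2 higher and 7 lower. Of all genes 542 were then higher and 932 lower. E5.5 VE replicate 1 had the lowest FPKM sum of the in vivo table (272055), and the part of this in the rises was not tested.

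Within VE, 3 calls did not depend on these settings or on 1 library. Meg3 had 20.0 and 15.1 FPKM at E6.5, against 111 and 90.2 FPKM at E5.5 (log2 fold -2.46, adjusted p = 0.0043). Kcnq1ot1 had 0.238 and 0.254 FPKM, against 1.94 and 2.02 FPKM (log2 fold -1.26, adjusted p = 0.0005). Asb4 had 10.4 and 13.6 FPKM, against 3.09 and 2.04 FPKM (log2 fold 1.87, adjusted p = 0.00386). Each pair of ranges was apart. Ube3a, Grb10, Mest, Tssc4, Sgce, H13 and Blcap were called higher in this comparison but not after quantile normalization. Of these, Ube3a had 38.4 and 32.2 FPKM at E6.5, against 8.67 and 9.35 FPKM at E5.5, and H13 had 43 and 43.8 FPKM, against 14.5 and 15.7 FPKM. Tssc4 had 16 and 16.8 FPKM, against 5.00 and 5.04 FPKM, and Blcap had 10.4 and 11.5 FPKM, against 3.41 and 5.27 FPKM. Grb10 had 119 and 173 FPKM at E6.5, against 52.9 and 30.1 FPKM at E5.5, Mest 447 and 614 FPKM, against 306 and 77.0 FPKM, and Sgce 38.7 and 42.2 FPKM, against 16.4 and 11.5 FPKM. Neither Grb10, Mest nor Sgce overlapped between the days. Snrpn was also called higher, with 30.5 and 9.03 FPKM at E6.5, against 0.897 and 2.43 FPKM at E5.5 (log2 fold 2.80, adjusted p = 0.0035). Its call was lost without E5.5 VE replicate 1 and without E6.5 VE replicate 1. Gnas had 72.0 and 81.0 FPKM at E6.5, against 177 and 194 FPKM at E5.5 (log2 fold -1.27, adjusted p = 0.0115), which was lost in 3 of the fits without 1 library.

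Whether the difference between epiblast and VE itself changed was tested as an interaction. Of 41 members 2 (4.88%) had a higher and 0 a lower difference at E6.5 than at E5.5, against 0.793% and 5.28% of all genes. After quantile normalization the members still had 2 and 0, while the calls over all genes were 269 higher and 124 lower, and 107 higher and 712 lower without it. With 1 table per fit 5 members had a higher and 6 a lower difference, beside 305 and 1704 of all genes. For Gnas the difference of epiblast minus VE was 0.49 on the log2 scale at E6.5 and -1.63 at E5.5, and its change was 2.12 (SE 0.51, adjusted p = 0.023). For Kcnq1ot1 it was -0.19 at E6.5 and -1.30 at E5.5, a change of 1.11 (SE 0.32, adjusted p = 0.045).

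**Figure D4:**
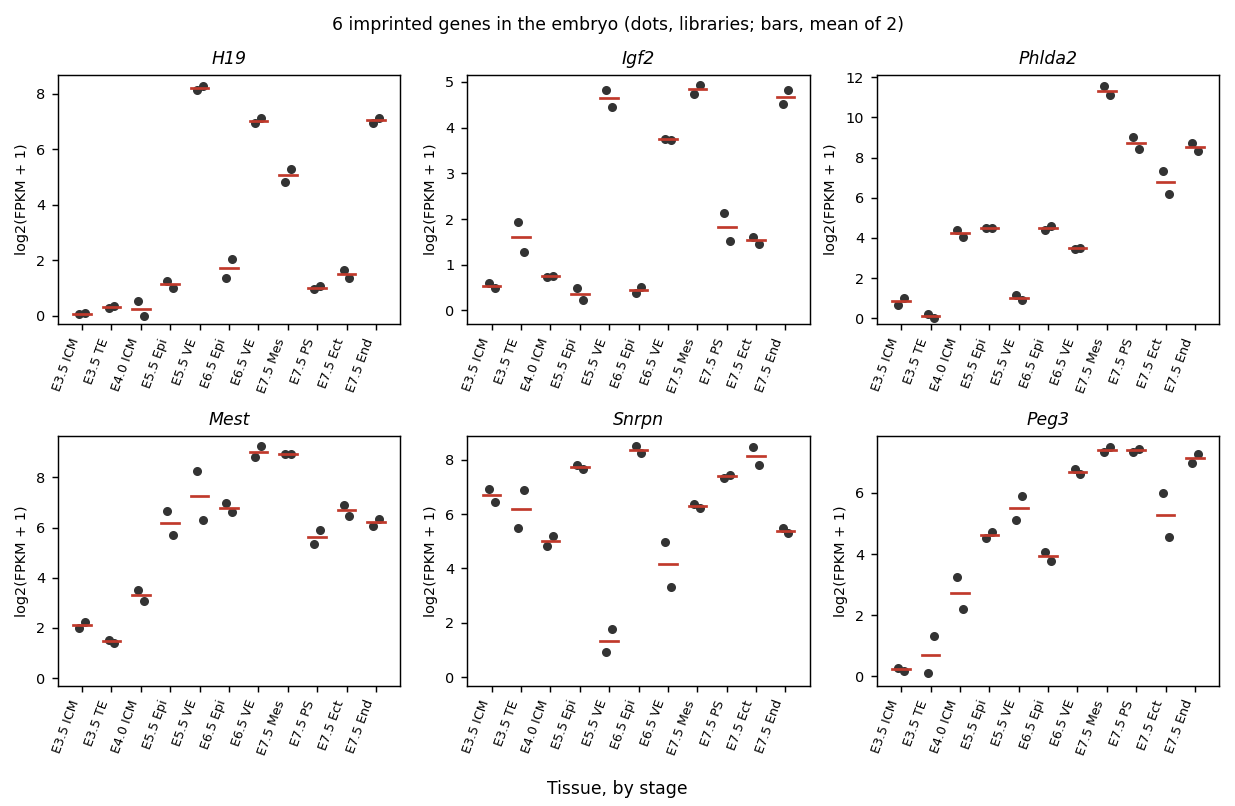
Levels of H19, Igf2, Phlda2, Mest, Snrpn and Peg3 as log2(FPKM + 1) in the 11 in vivo groups, with dots for libraries (2 per group) and a bar at their mean on that scale. H19 is high in VE, in E7.5 endoderm (124 and 139 FPKM) and, lower, in E7.5 mesoderm (27.3 and 38.4 FPKM), and Phlda2 peaks in E7.5 mesoderm at 3007 and 2182 FPKM.

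At E7.5 the 11 members called against ectoderm and the 7 called against streak were all higher in mesoderm. The streak, through which epiblast cells pass to form mesoderm, is the step between. In primitive streak 3 of 41 members (7.32%) were higher and 0 lower than in E6.5 epiblast, against 2.56% and 1.18% of all genes. Peg3 had 162 and 173 FPKM in streak, against 15.7 and 12.8 FPKM in E6.5 epiblast (log2 fold 3.47, SE 0.47, adjusted p = 4.56e-05). Sgce had 18.2 and 11.7 FPKM, against 1.02 and 1.41 FPKM (log2 fold 2.83, SE 0.48, adjusted p = 0.000609). The groups were apart in both. Phlda2 had 517 and 338 FPKM, against 20.1 and 23.4 FPKM (log2 fold 4.21, SE 1.20, adjusted p = 0.0492).

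In E7.5 ectoderm, which continues the epiblast, 0 of 41 members were called higher and 0 lower than in E6.5 epiblast, against 0.497% and 0.578% of all genes. At an unadjusted p under 0.05 limma had 7 of 41 members, 4 higher and 3 lower, beside 1268 of all 13493 genes. In a fit of the in vivo table alone 4 were called: Phlda2, Igf2 and Sgce higher and Dcn lower. Of all genes 117 were higher and 248 lower in that fit. Phlda2 had 158 and 72.7 FPKM in ectoderm, against 20.1 and 23.4 FPKM in E6.5 epiblast, and Igf2 had 2.04 and 1.75 FPKM, against 0.296 and 0.438 FPKM.

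In mesoderm 7 members (17.1%) were higher and 0 lower than in primitive streak, against 1.57% and 1.81% of all genes. Set against ectoderm, which shares the mesoderm libraries, 11 (26.8%) were higher and 0 lower, against 3.09% and 1.39%. H19 had 27.3 and 38.4 FPKM in mesoderm, against 0.974 and 1.09 FPKM in streak (log2 fold 4.04, adjusted p = 4.11e-05) and 2.15 and 1.58 FPKM in ectoderm (log2 fold 3.55, adjusted p = 0.000151). Igf2 had 25.8 and 29.4 FPKM, against 3.38 and 1.88 FPKM in streak (log2 fold 3.0, adjusted p = 0.000323) and 2.04 and 1.75 FPKM in ectoderm (log2 fold 3.30, adjusted p = 8.67e-05). Asb4 had 35.1 and 36.0 FPKM, against 3.21 and 4.27 FPKM in streak (log2 fold 2.96, adjusted p = 0.000175) and 2.07 and 1.28 FPKM in ectoderm (log2 fold 3.79, adjusted p = 5.78e-06). These 3 genes did not overlap between mesoderm and either tissue, and their calls were kept in every alternative. The 6 VE markers summed to 1.20 and 1.04 FPKM in mesoderm. Trophoblast markers summed to 418 and 369 FPKM there, against 87.9 and 68.4 FPKM in streak and 123 and 69.1 FPKM in ectoderm. Of that list Krt8 had 134 and 119 FPKM in mesoderm, Gata3 had 2.75 and 2.51 FPKM, and Elf5 and Tpbpa were at 0 in both libraries. The larger part of the sum lay in the rest of the list, Cdx2, Krt18 and Plac1. The part of trophoblast RNA in the mesoderm levels was not tested.

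The other members higher in mesoderm varied more. Peg10 had 3.46 and 4.27 FPKM in mesoderm, against 0.458 and 0.518 FPKM in streak and 0.121 and 0.422 FPKM in ectoderm. Mest had 490 and 489 FPKM, against 39.9 and 59.0 FPKM in streak (log2 fold 3.31, adjusted p = 0.00245) and 120 and 87.6 FPKM in ectoderm (log2 fold 2.25, adjusted p = 0.0457). The Mest groups were apart, though the call against streak was lost without streak replicate 1 (adjusted p = 0.052), and the call against ectoderm was lost in each fit without a library. Peg3 had 159 and 179 FPKM in mesoderm, against 63.1 and 22.3 FPKM in ectoderm, where the libraries differed, and was about as high in streak. Sgce had 24.5 and 21.2 FPKM in mesoderm, against 8.36 and 3.91 FPKM in ectoderm (log2 fold 1.81, adjusted p = 0.0287). Slc22a18, Peg12 and Airn were called at levels under 8 FPKM. Airn had 2.13 and 1.17 FPKM in mesoderm and was listed at 0 in both ectoderm libraries. Snrpn ran the other way, with 82.0 and 73.6 FPKM in mesoderm, against 352 and 219 FPKM in ectoderm, and was not called (log2 fold -1.82, adjusted p = 0.154).

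Phlda2 was the highest member in mesoderm, and its test depended on which libraries shared the fit. It had 3007 and 2182 FPKM in mesoderm, against 517 and 338 FPKM in streak and 158 and 72.7 FPKM in ectoderm, with no overlap. The log2 fold was 2.61 against streak (SE 1.20, adjusted p = 0.486) and 4.56 against ectoderm (SE 1.20, adjusted p = 0.0261). The embryos cultured for 2 days had 3651 and 80.9 FPKM of it, and this spread enters the shared error. In a fit of the in vivo table alone the adjusted p was 2.34e-05 against streak and 2.46e-08 against ectoderm. Over the alternatives the adjusted p against ectoderm ran from 2.46e-08 to 0.261.

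**Figure D5:**
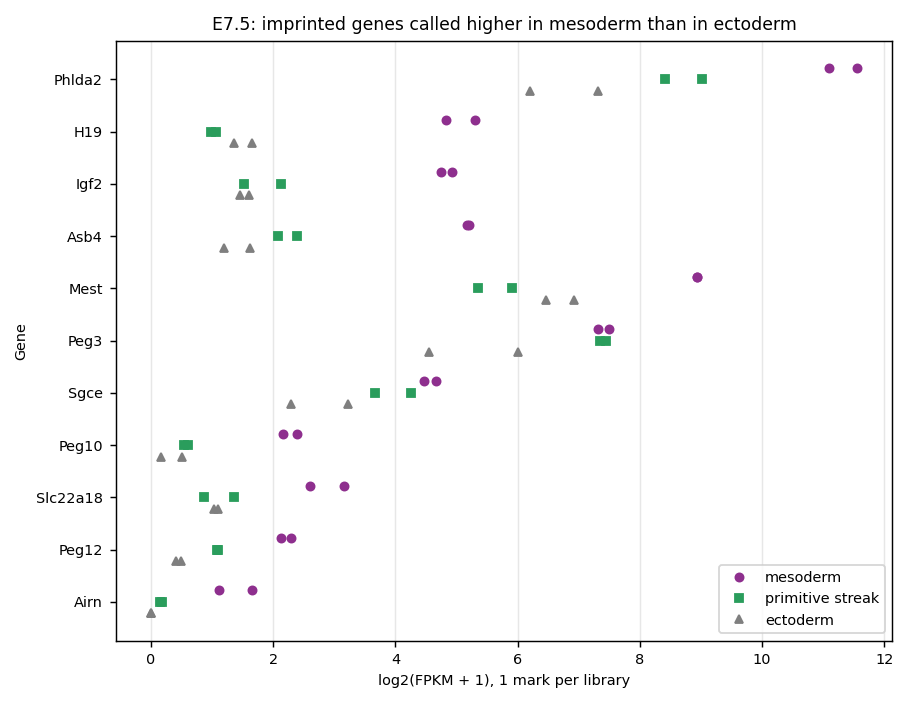
Levels of the 11 imprinted genes called higher in E7.5 mesoderm than in ectoderm, as log2(FPKM + 1) in mesoderm, primitive streak and ectoderm, with 1 point per library (2 per group). Mesoderm lies right of ectoderm for each gene, with Phlda2 at 3007 and 2182 FPKM and H19 at 27.3 and 38.4 FPKM; Peg3 in streak is as high as in mesoderm.

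In E7.5 endoderm 5 members (12.2%) were higher and 1 (2.44%) lower than in E6.5 VE, against 3.39% and 0.875% of all genes. Nnat had 97.1 and 80.5 FPKM in E7.5 endoderm, against 6.53 and 1.95 FPKM in E6.5 VE (log2 fold 4.25, adjusted p = 6.64e-05). Ndn had 30.4 and 32.9 FPKM, against 1.41 and 0.904 FPKM (log2 fold 3.93, adjusted p = 6.44e-05). Both genes, low in VE at E5.5 and E6.5, were high in this tissue in both libraries. Mest had 65.3 and 81.2 FPKM, against 447 and 614 FPKM (log2 fold -2.83, adjusted p = 0.00899). Phlda2 had 416 and 324 FPKM, against 9.83 and 10.4 FPKM (log2 fold 5.05, adjusted p = 0.0125, and 9.48e-09 in a fit of the in vivo table alone). H19 had 124 and 139 FPKM in endoderm and 124 and 138 FPKM in VE (log2 fold 0.00, SE 0.54). Dlk1, a paternally expressed Notch-like ligand, reached its highest level in vivo, 3.28 and 2.18 FPKM (log2 fold 1.33, adjusted p = 0.000568). The VE markers summed to 5551 and 5063 FPKM in this tissue, epiblast markers to 39.3 and 55.8 FPKM and streak markers to 72.7 and 66.1 FPKM. In E6.5 VE the VE markers were at 5699 and 6235 FPKM, above both endoderm libraries. The calls of Phlda2 and Mest were each lost in at least 1 fit without a library (highest adjusted p 0.119 for each), and those of Dlk1 and Slc22a18 with a pseudocount of 0.1 (adjusted p = 0.102 and 0.225), while Nnat and Ndn were called under every alternative run.

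In embryos cultured for 2 days 4 of 41 members (9.76%) were higher and 1 (2.44%) lower than after 1 day, against 4.08% and 2.37% of all genes. After quantile normalization 2 were higher and 2 lower, beside 549 and 446 of all genes. Ascl2, a maternally expressed trophoblast transcription factor, had 184 and 12.9 FPKM after 2 days, against 0 and 3.65 FPKM after 1 day (log2 fold 4.56, SE 0.93, adjusted p = 0.00416). Nnat had 0.428 and 6.46 FPKM after 2 days, against 7.59 and 33.6 FPKM after 1 day (log2 fold -2.40, SE 0.60, adjusted p = 0.0177). Cdkn1c, a maternally expressed cell cycle inhibitor, had 344 and 40.3 FPKM, against 15 and 21.6 FPKM (log2 fold 2.65, SE 0.60, adjusted p = 0.00967). The first 2-day library stood apart, with 3344 against 1358 FPKM of trophoblast markers and 3.21 against 96.7 FPKM of Pou5f1. Without it Cdkn1c had a log2 fold of 1.12 (adjusted p = 0.0961), Nnat of -1.21 (adjusted p = 0.185) and Ascl2 of 2.69 (adjusted p = 0.0483). In a limma fit of this table alone 0 members and 0 of all genes were called, with 461 genes at an unadjusted p under 0.05. The part of trophoblast RNA in these values was not tested. H19 was high after both, with 493 and 228 FPKM after 2 days and 433 and 200 FPKM after 1 day.

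Split by expressed allele, the calls of either kind ran in 1 direction in some comparisons and in both in others. In E7.5 mesoderm against ectoderm 7 of 21 tested paternal and 4 of 20 maternal members were higher and 0 of either kind lower. Of all genes 3.09% were higher and 1.39% lower there. In E5.5 epiblast against VE 3 paternal members were higher and 5 lower, and 8 maternal members were higher and 6 lower. Of all genes 27.1% were higher and 9.60% lower there. In cultured epiblast against VE 4 paternal members were higher and 5 lower, and 0 maternal members were higher and 5 lower. The shares of all genes there were 10.8% and 13.6%. The median log2 fold in the mesoderm comparison was 0.75 for paternal and 0.53 for maternal members, beside 0.18 for all genes.

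Within clusters the likeness of 2 genes across the 11 in vivo group means was described by Pearson's r on the log2(FPKM + 1) scale. All points share the table and its normalization, so r is a description only. Over 42 pairs with the same expressed allele the median r was 0.54 (-0.48 to 0.90, with 23 over 0.5). Over 31 pairs with opposite alleles it was 0.34 (-0.64 to 0.91, with 9 over 0.5). The closest pair was H19 and Igf2, of opposite alleles, at 0.91. Meg3 and Rian, both maternal non-coding RNAs, had 0.90, and Sgce and Asb4, of opposite alleles, had 0.90. Tssc4 and Phlda2 had 0.89, Ndn and Magel2 0.82, and Nnat and its host Blcap 0.75. Tssc4 and Kcnq1ot1 had the lowest, -0.64. Igf2r, the maternally expressed receptor that clears IGF2, and Airn had 0.47. Smart-seq2 libraries carry no strand, so reads of overlapping pairs (Airn and Igf2r, Kcnq1ot1 and Kcnq1, Nespas and Gnas, Nnat and Blcap, Mest and Copg2, Peg3 and Usp29) cannot be told apart, and Snrpn, Mkrn3 and Zrsr1 have near relatives elsewhere in the genome.

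A list of 14 genes that keep or set methylation at imprints was set beside the members. Of these 9 were higher and 0 lower in E5.5 epiblast than in VE, against 27.1% and 9.60% of all genes. In E4.0 ICM 7 were higher and 1 lower than in E3.5 ICM, against 15.8% and 4.80% of all genes. Dnmt3a, a methyltransferase that sets methylation anew, had 97.9 and 101 FPKM in E5.5 epiblast, against 2.84 and 8.63 FPKM in E5.5 VE (log2 fold 4.05, adjusted p = 0.000923). Its cofactor Dnmt3l had 71.1 and 138 FPKM, against 0.601 and 6.14 FPKM (log2 fold 4.89, adjusted p = 1.57e-05). Zfp57, which binds the motif above, had 8.96 and 7.31 FPKM in E5.5 epiblast, against 178 and 179 FPKM in E4.0 ICM (log2 fold -4.30, adjusted p = 0.0032). Dppa3, a maternal factor that protects methylation in the zygote, had 29.5 and 32.1 FPKM in E4.0 ICM, against 1390 and 1259 FPKM in E3.5 ICM (log2 fold -5.38, adjusted p = 5.83e-06). In E7.5 ectoderm 0 of the 14 were called higher and 0 lower than in E6.5 epiblast.

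Another 26 imprinted genes outside the 44 gave 17 tested. In E5.5 epiblast against VE 3 were higher and 5 lower, against 27.1% and 9.60% of all genes, and at E6.5 1 was higher and 5 lower, against 6.95% and 9.58%. Ddc, for an aromatic amino acid decarboxylase, and Sfmbt2, a Polycomb gene with a role in trophoblast, were lower in epiblast at both stages and in culture. Ddc had log2 folds of -3.42 at E5.5 (adjusted p = 1.34e-05), -4.48 at E6.5 (adjusted p = 7.73e-07) and -3.60 after 4 days in culture (adjusted p = 1.02e-05). Sfmbt2 had -3.24, -2.29 and -2.54 (adjusted p = 1.87e-06, 0.000129 and 3.45e-05). Gatm, for the enzyme that starts creatine synthesis, was higher in epiblast in all 3, with log2 folds of 2.11, 2.03 and 2.61.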

How the data were processed

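FPKM values per gene were made by the authors: per the submitters' processing notes, reads of Smart-seq2 libraries were handled with CASAVA 1.8, TopHat2 2.0.11 and Cufflinks 2.0.2 on mm9. These libraries carry no strand. The 3 deposited tables (22613, 22590 and 22592 rows) were joined on 22563 shared symbols, and 27 symbols turned into dates and 4 repeated rows of the in vivo table were left out. Values at or under 1e-06 were set to 0. The 13493 genes that reached 1 FPKM in 2 or more libraries entered a limma 3.58.1 fit (R 4.3.3) of log2(FPKM + 1), with the prior variance allowed to follow the mean level. All 30 libraries of 15 groups shared this fit, with 15 residual degrees of freedom and Benjamini-Hochberg adjustment within each comparison. Comparisons were made only within a table, and several share libraries. FPKM do not give the number of reads behind a value.

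Read counts per CpG, methylated and unmethylated on each strand, were deposited as a merge of 3 Tet1/2 double-knockout libraries, with BS-Seeker2 and Bowtie2 named in the submitters' processing notes and mm9 as the build. RefSeq windows with at least 7 CpGs were placed on it by exact CpG spacing: of 17057 such windows 16860 were placed once, 139 more than once and 58 not at all. Windows with at least 10 reads, summed over their CpGs, were used.

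The members and gene lists were chosen with earlier results of these data known. Members called in a comparison with a group mean of at least 10 FPKM in it are given by library, and at most 12 per comparison, those with the largest folds, get a fold and p; Gnas and Kcnq1ot1 in E5.5 epiblast against VE were added after their values were seen. Each fit was repeated without each library in turn, with 1 table per fit, with a replicate block, after quantile normalization, with the filter raised to 5 FPKM or dropped, and with 0.1 added in place of 1. For methylation the read minimum, flanks of 500 bases and single strands were varied, chosen after seeing the data. The other 45 of 78 samples were not analysed here.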

Additional observations from a re-analysis of the deposited data

Results flagged for a closer look

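For 2 imprinted genes the difference of epiblast minus VE itself differed between E6.5 and E5.5 by limma's interaction test. For Gnas this difference was 0.49 on the log2 scale at E6.5 and -1.63 at E5.5, a change of 2.12 (adjusted p = 0.023). Gnas had 115 and 101 FPKM in E6.5 epiblast, against 72.0 and 81.0 FPKM in E6.5 VE, and 66.4 and 53.0 FPKM in E5.5 epiblast, against 177 and 194 FPKM in E5.5 VE. For Kcnq1ot1 the change was 1.11 (adjusted p = 0.045), and it had 0.107 and 0.0840 FPKM in E6.5 epiblast, against 0.238 and 0.254 FPKM in E6.5 VE. Both calls were lost in fits that left out 1 library.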

How the results depend on the processing

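No named result changed sign under any alternative run. Of 136 results of named members, the call was kept in 110 with a pseudocount of 0.1, 113 without a filter, 115 with quantile normalization, 132 with a replicate block and 129 with 1 table per fit, in 113 of 114 with a filter at 5 FPKM, and in 374 of 552 fits without 1 library. Counts of called members moved as follows, and the cause was not tested. Counts over all genes moved with the settings too. E3.5 ICM against TE (5) had 3 without a filter and 3 at 5 FPKM. E4.0 against E3.5 ICM (7) had 13 with the pseudocount and 12 with 1 table per fit. E6.5 against E5.5 epiblast (1) had 0 with the pseudocount, 0 at 5 FPKM, 0 with quantile normalization and 4 with 1 table per fit. E7.5 ectoderm against E6.5 epiblast (0) had 4 with 1 table per fit. Streak against E6.5 epiblast (3) had 1 with the pseudocount and 6 with 1 table per fit. Mesoderm against ectoderm (11) had 5 with the pseudocount. Culture for 2 days against 1 day (5) had 3 with the pseudocount, 3 without a filter and 0 with 1 table per fit. The interaction (2) had 1 with the pseudocount, 1 without a filter, 1 at 5 FPKM and 1 with the replicate block. With 1 table per fit it had 11 (5 higher, 6 lower), beside 305 higher and 1704 lower over all genes. Member windows between 25 and 75% methylated (9 of 30) were 11 of 35 at 5 reads and 6 of 23 at 20 reads. They were 18 of 45 with flanks, 3 of 18 on the Watson strand and 3 of 18 on the Crick strand. Among all promoters the share in that range was 8.55% at 10 reads, 9.81% at 5 reads and 5.94% at 20 reads. It was 14.2% with flanks, 7.33% on the Watson strand and 7.08% on the Crick strand.

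Without 1 library the counts ran from 0 to 3 for E3.5 ICM against TE, 4 to 5 for E4.0 against E3.5 ICM, 13 to 17 for E5.5 epiblast against VE, 0 to 3 for E6.5 against E5.5 epiblast, 5 to 8 for E6.5 against E5.5 VE, 6 to 11 for mesoderm against ectoderm, 4 to 9 for 2 days against 1 day and 0 to 2 for the interaction. The library left alone in its group then takes its error from the remaining groups. Most same-numbered libraries did not deviate together (median correlation 0.006, from -0.268 to 0.438), though the correlation was over 0.1 in 9 of 55 pairs of groups. The replicate block pairs libraries by these numbers only, and it left 1 interaction call of 2.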
